A study of Mus musculus with 12 samples.

Results

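The myeloid C-type lectin receptors described here are 10 genes, Clec4a1, Clec4a2, Clec4a3, Clec4d, Clec4e, Clec4n, Clec5a, Clec7a, Clec10a and Clec12a. They were taken by symbol from the 56748 genes of a table of unnormalized expected counts, and all 10 passed the filter on low counts that left 15033 genes for testing. The cells were M2-like bone marrow–derived macrophages (BMDM) of C57BL/6J mice, that is, macrophages grown from marrow with M-CSF at 20 ng/mL and polarized with IL4 at 10 ng/mL for 48 hours. For the following 72 hours they received 1 of 4 conditions, with 3 libraries each. Untreated controls received medium with neither supernatant nor IFNβ. The eGFP supernatant came from YUMM5.2 mouse melanoma cells with a Dox-dependent eGFP vector, and the Ifnb1eGFP supernatant from YUMM5.2 cells whose Dox-dependent vector carried Ifnb1 as well as eGFP. Dox was given to both donor lines for 72 hours at 1 μg/mL, so Dox-treated donors were shared by the supernatant conditions and not by the controls. The Ifnb1eGFP supernatant was set to 1500 pg/mL IFNβ, with the same dilution ratio for eGFP supernatant, and rIFNβ (recombinant protein) was given at 1500 pg/mL. IL4 polarization was shared by all 4 conditions, controls included.

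C-type lectin receptors are surface proteins whose lectin fold binds sugars, lipids or crystals from microbes and dying cells. Some activate macrophages through the kinase Syk, either by a tyrosine motif of their own or by pairing with the adaptors Fcer1g, Tyrobp or Hcst, and Syk then signals through Card9, Bcl10 and Malt1. Others carry inhibitory tyrosine motifs that recruit the phosphatases encoded by Ptpn6 and Ptpn11.

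Library totals ran from 31526004 to 45348410 counts. The macrophage genes Adgre1, Csf1r and Cd68 stood at 1022.7 CPM (counts scaled to 1e+06 per library) or more in all 12 libraries. They come from a list of 8 macrophage markers, of which others fell with IFNβ, as described below. The eGFP supernatant replicate 2 stood apart, with the interferon-induced genes Irf7 at 45.2 CPM and Ifit1 at 57.5 CPM, against at most 11.01 and 10.5 CPM in the other eGFP libraries. Each interferon gene was still far below the IFNβ-treated libraries, in which Irf7 was at 1333 CPM or more. In the Ifnb1eGFP supernatant group, all 10 receptors were highest in replicate 1 and lowest in replicate 2, an order held by 25.4% of all tested genes.

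IFNβ divided the family. Clec4a1 and Clec4a3 rose most, Clec12a rose less, and Clec5a, Clec4e and Clec7a fell, with the supernatant of IFNβ-secreting melanoma cells and with rIFNβ. A receptor was called when its adjusted p by edgeR's quasi-likelihood test did not exceed 0.05. The supernatant comparison (Ifnb1eGFP against eGFP supernatant) called 5 receptors higher and 4 lower, where 55.1% of all tested genes were called, 30.1% higher and 25.0% lower. For rIFNβ against control the counts were also 5 higher and 4 lower, where 55.3% of all tested genes were called, 30.7% higher and 24.6% lower. The libraries of the compared groups did not overlap for 9 of the 10 receptors in each comparison, where this held for 59.0% and 66.1% of all genes. The supernatant comparison called 9 receptors without eGFP supernatant replicate 2 or without Ifnb1eGFP supernatant replicate 1, and 8 without Ifnb1eGFP supernatant replicate 2. With any 1 library left out the count ran from 7 to 9. It was lowest without eGFP supernatant replicate 1, where Clec4n and Clec10a lost their calls. At the study's stricter thresholds (adjusted p up to 0.01 and a log2 fold change of 2 or more in size) Clec4a1 and Clec4a3 were called in each comparison, both higher. These thresholds were passed by 5.39% of all genes in the former comparison, 2.77% higher, and by 5.77% in the latter, 2.99% higher. Over the 10 receptors the median log2 fold change was 0.06 and −0.0016, beside 0.03 and 0.04 over all genes tested. The median absolute log2 fold change was 0.79 and 0.74, beside 0.37 and 0.37. In bulk RNA, fewer cells of a type and less RNA per cell cannot be told apart.

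**Figure D1:**
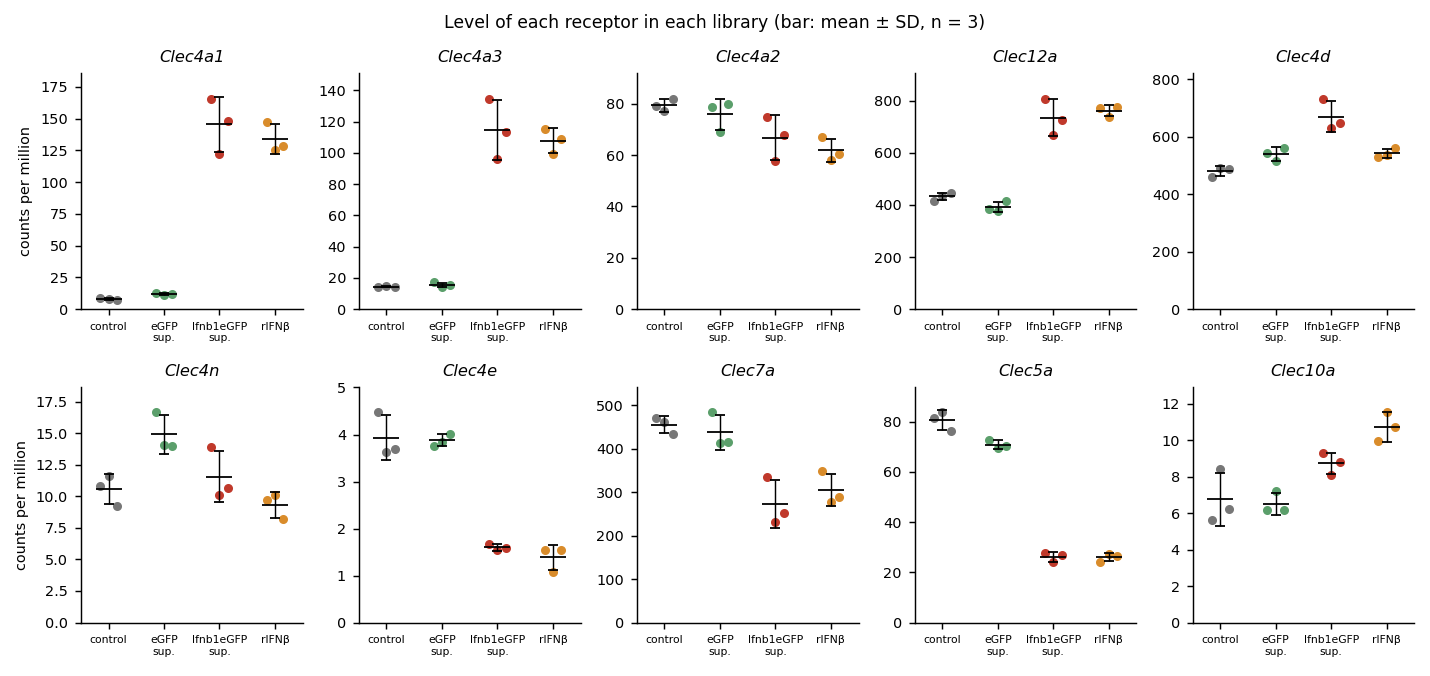
CPM (linear axes from 0) of the 10 receptors in each of the 12 libraries, with 1 point per library in the order of the replicate numbers and bars for the mean ± SD (n = 3). Clec4a1 stood between 7.62 and 12.9 CPM in the 6 libraries without IFNβ and between 122 and 166 CPM in the 6 with IFNβ, while Clec5a fell from 69.4 CPM or more to 27.6 CPM or less.

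Clec4a1, Clec4a3 and Clec4a2 encode members of the dendritic cell immunoreceptor (DCIR) group, named DCIR4, DCIR3 and DCIR1. Clec4a2 carries an inhibitory motif. Clec4a1 was at 8.52, 8.02 and 7.62 CPM in the control libraries and at 12.9, 11.04 and 11.8 CPM with eGFP supernatant. It was at 166, 122 and 148 CPM with Ifnb1eGFP supernatant and at 147, 125 and 129 CPM with rIFNβ. All 6 libraries with IFNβ were far above the 6 without, and replicate 2 of the eGFP supernatant, the library with raised interferon genes, was the lowest of its group. The log2 fold change was 3.61 ± 0.12 (SE) for Ifnb1eGFP against eGFP supernatant, 12.2-fold (adjusted p = 8.78e-10, edgeR). For rIFNβ against control it was 4.06 ± 0.12, 16.6-fold (adjusted p = 4.18e-10, edgeR). Without eGFP supernatant replicate 2 the former was 3.55.

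Clec4a3 was at 14.1, 15.02 and 14.3 CPM in the controls and at 17.1, 14.4 and 15.6 CPM with eGFP supernatant. It was at 135, 95.9 and 113 CPM with Ifnb1eGFP supernatant and at 115, 99.5 and 109 CPM with rIFNβ. As for Clec4a1, libraries with and without IFNβ did not overlap. The log2 fold changes were 2.87 ± 0.12 with supernatant (7.30-fold, adjusted p = 4.50e-09, edgeR) and 2.90 ± 0.12 with rIFNβ (7.46-fold, adjusted p = 3.73e-09, edgeR).

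Clec4a2, the inhibitory relative, did not share this rise. Its CPM lay between 77.2 and 82.0 in the controls, between 69.0 and 79.9 with eGFP supernatant, between 57.6 and 74.8 with Ifnb1eGFP supernatant and between 58.0 and 66.9 with rIFNβ. The rIFNβ libraries lay below the controls, whereas the supernatant groups overlapped. Clec4a2 fell with rIFNβ (log2 fold change −0.36 ± 0.09, adjusted p = 0.00575, edgeR), and its value for Ifnb1eGFP against eGFP supernatant was −0.18 ± 0.09 (adjusted p = 0.113, edgeR). Without Ifnb1eGFP supernatant replicate 1, the highest library, the latter was −0.31 (adjusted p = 0.0215). With replicate number as a block in the fit it was −0.19 (adjusted p = 0.0224, edgeR). The expected counts of Clec4a2 and Clec10a were not whole numbers in any library, so RSEM divided reads between them and other sequences, and their levels are less certain. The counts of the other 8 receptors were whole in every library.

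The 3 DCIR genes lie on chromosome 6 of GRCm39, with Clec4a1 at chr6:122896122-122911578, Clec4a3 at chr6:122929380-122948807 and Clec4a2 at chr6:123083387-123120958, all protein-coding and on the plus strand. RefSeq promoter windows (GRCm38.p6, 250 bases before to 50 after a start site) were found for 8 of the 10 receptors, in 10 windows. They are shown because the 3 genes, close relatives and neighbors, differed in their response. Each is printed 5′ to 3′ on the plus strand from 250 bases before to 20 bases after the start site, with capitals for matches to the motifs described below. The windows are Clec4a1 at chr6:122921598-122921867, Clec4a3 at chr6:122952394-122952663 and Clec4a2 at chr6:123122440-123122709. For Clec4a3 this is the more downstream of its 2 overlapping windows, and the one that holds the run described below. Genes and windows are on different builds, so their coordinates do not line up directly. A RefSeq start site can lie inside the GENCODE gene, as those of Clec4a1 and Clec4a2 appear to.
Clec4a1: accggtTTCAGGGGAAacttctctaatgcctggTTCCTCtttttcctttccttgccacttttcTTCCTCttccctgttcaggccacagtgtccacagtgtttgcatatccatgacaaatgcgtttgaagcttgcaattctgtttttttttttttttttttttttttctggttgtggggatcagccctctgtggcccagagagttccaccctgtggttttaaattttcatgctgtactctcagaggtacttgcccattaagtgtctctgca
Clec4a3: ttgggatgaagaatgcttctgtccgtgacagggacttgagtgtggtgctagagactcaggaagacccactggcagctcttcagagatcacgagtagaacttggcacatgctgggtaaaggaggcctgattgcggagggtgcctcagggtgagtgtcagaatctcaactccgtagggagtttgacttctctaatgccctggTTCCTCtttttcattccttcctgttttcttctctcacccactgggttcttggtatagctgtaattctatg
Clec4a2: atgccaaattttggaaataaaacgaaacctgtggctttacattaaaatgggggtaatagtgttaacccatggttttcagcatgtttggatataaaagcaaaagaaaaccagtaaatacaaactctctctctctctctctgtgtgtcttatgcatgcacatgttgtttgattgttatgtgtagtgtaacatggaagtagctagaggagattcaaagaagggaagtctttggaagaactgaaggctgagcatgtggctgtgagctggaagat

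The windows were searched on both strands for 3 motifs. The core of the interferon-stimulated response element (ISRE), searched as GAAA repeated with any 2 bases between, was in 3.44% of the 32851 promoter windows of the same length. TTC and GAA with any 4 bases between, the form preferred by STAT6, was in 6.95%, and GAGGAA, a core of PU.1 sites, in 28.3%. No window of the 3 DCIR genes held the ISRE core. The Clec4a1 window held the STAT6 form at −244, counted from the start site, and GAGGAA on the minus strand at −217 and −187. The Clec4a3 window held GAGGAA on the minus strand at −50, and the Clec4a2 window held none of the 3. A match is a description of letters, and a window without one says nothing of a factor.

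The windows of Clec4a1 and Clec4a3 shared a run of 17 bases, the longest among the window pairs of different receptors, whose next longest was 15. It occurred in 2 of the 32851 windows, those of these 2 genes. With the 12 bases shared just before it, the stretch was 29 bases long in Clec4a1, from −234, and 30 bases in Clec4a3, from −68, with 1 more base between the shared runs. The stretches are printed with the PU.1 core, on the minus strand, in capitals.
Clec4a1 stretch: acttctctaatgcctggTTCCTCtttttc
Clec4a3 stretch: acttctctaatgccctggTTCCTCtttttc

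Clec4d, Clec4e and Clec4n encode the receptors MCL, Mincle and Dectin-2, which signal through the adaptor Fcer1g. MCL and Mincle recognize a glycolipid of mycobacteria, and Dectin-2 recognizes fungal mannans. Their genes are neighbors at chr6:123239070-123252230 (plus strand), chr6:123258748-123266829 (minus strand) and chr6:123206802-123223980 (plus strand) of GRCm39. The 3 genes moved apart.

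Clec4d had 461, 492 and 489 CPM in the controls and 543, 515 and 561 CPM with eGFP supernatant. It had 733, 629 and 648 CPM with Ifnb1eGFP supernatant and 529, 538 and 559.6 CPM with rIFNβ. The Ifnb1eGFP libraries were above all others, and the 3 controls were below all others. Clec4d rose by 0.31 ± 0.06 on the log2 scale for Ifnb1eGFP against eGFP supernatant (1.24-fold, adjusted p = 0.00102, edgeR). For rIFNβ against control it rose by 0.17 ± 0.06 (1.13-fold, adjusted p = 0.0292, edgeR). The rIFNβ call was lost without either of control replicates 1 and 3 or rIFNβ replicates 2 and 3, with adjusted p from 0.0538 to 0.108, and with DESeq2 (0.133). Its promoter window (GRCm38.p6, printed from chr6:123261857-123262126, plus strand, with the same motifs in capitals) held the ISRE core on the minus strand from the first base after the start, overlapping a GAGGAA match. It was the only window among the 8 receptors found that held this motif.
Clec4d: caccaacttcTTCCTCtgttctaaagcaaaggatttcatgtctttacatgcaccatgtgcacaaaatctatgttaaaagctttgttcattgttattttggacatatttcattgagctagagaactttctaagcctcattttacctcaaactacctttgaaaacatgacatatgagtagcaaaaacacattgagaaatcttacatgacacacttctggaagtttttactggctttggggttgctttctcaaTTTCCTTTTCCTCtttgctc

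Clec4e was scarce throughout, with 4.48, 3.63 and 3.69 CPM in the controls and 3.76, 3.85 and 4.02 CPM with eGFP supernatant. It had 1.67, 1.54 and 1.59 CPM with Ifnb1eGFP supernatant and 1.54, 1.08 and 1.54 CPM with rIFNβ, from 48 to 73 counts per library. No library with IFNβ reached a library without it. Clec4e fell by 1.28 ± 0.14 on the log2 scale in the supernatant comparison, 2.42-fold (adjusted p = 1.64e-05, edgeR). With rIFNβ it fell by 1.51 ± 0.15, 2.84-fold (adjusted p = 4.81e-06, edgeR).

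Clec4n lay between 9.27 and 11.6 CPM in the controls, between 14.004 and 16.7 with eGFP supernatant, between 10.1 and 13.9 with Ifnb1eGFP supernatant and between 8.19 and 10.1 with rIFNβ. The eGFP supernatant libraries were above all other groups, and the rIFNβ and control ranges overlapped. Clec4n fell for Ifnb1eGFP against eGFP supernatant (log2 fold change −0.37 ± 0.13, adjusted p = 0.0366, edgeR), while rIFNβ against control gave −0.18 ± 0.14 (adjusted p = 0.306, edgeR). The supernatant call was lost without eGFP supernatant replicate 1 (adjusted p = 0.138), Ifnb1eGFP supernatant replicates 2 (0.110) and 3 (0.122) or rIFNβ replicate 1 (0.0502), and held without eGFP supernatant replicate 2 (0.0488).

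Clec5a encodes MDL-1, an activating receptor that pairs with the adaptors Tyrobp and Hcst, and Clec7a encodes Dectin-1, which binds fungal β-glucan and signals to Syk through its own tyrosine motif. Clec5a lies at chr6:40551234-40562773 and Clec7a at chr6:129438554-129449742, both on the minus strand of GRCm39. Clec5a had 81.6, 83.9 and 76.2 CPM in the controls and 72.9, 69.4 and 70.4 CPM with eGFP supernatant. With Ifnb1eGFP supernatant it had 27.6, 24.1 and 26.7 CPM, and with rIFNβ 24.3, 27.4 and 26.5 CPM. The IFNβ groups overlapped each other and lay far below the groups without IFNβ. The log2 fold changes were −1.44 ± 0.06 with supernatant (2.71-fold lower, adjusted p = 7.60e-09, edgeR) and −1.63 ± 0.06 with rIFNβ (3.09-fold lower, adjusted p = 2.82e-09, edgeR).

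Clec7a had 470.4, 463 and 434 CPM in the controls and 485, 414 and 415 CPM with eGFP supernatant. It had 336, 232 and 252 CPM with Ifnb1eGFP supernatant and 348, 278 and 290.3 CPM with rIFNβ. Libraries with IFNβ were below those without, with a wide spread within each IFNβ group. Clec7a fell by 0.68 ± 0.13 on the log2 scale in the supernatant comparison (1.60-fold, adjusted p = 0.000958, edgeR) and by 0.58 ± 0.13 with rIFNβ (1.49-fold, adjusted p = 0.00269, edgeR).

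Clec12a encodes MICL, an inhibitory receptor that recognizes uric acid crystals and recruits the Ptpn6 phosphatase. It lies at chr6:129319654-129342266 on the plus strand of GRCm39, with its lowest base 118.9 kb from that of Clec7a. Clec12a had 417, 436 and 445 CPM in the controls and 384, 376 and 416 CPM with eGFP supernatant. It had 808, 668 and 726 CPM with Ifnb1eGFP supernatant and 773, 738 and 775 CPM with rIFNβ. The groups with IFNβ overlapped each other and stood above every library without IFNβ. The log2 fold change was 0.90 ± 0.07 with supernatant (1.87-fold, adjusted p = 5.25e-07, edgeR) and 0.82 ± 0.07 with rIFNβ (1.76-fold, adjusted p = 1.08e-06, edgeR).

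Clec10a encodes MGL1, a receptor for galactose-type sugars that is often used as a marker of IL4-polarized macrophages. It is the only receptor of the 10 outside chromosome 6, at chr11:70047023-70061660 on the plus strand of GRCm39. Its CPM lay between 5.63 and 8.40 in the controls, between 6.15 and 7.21 with eGFP supernatant, between 8.12 and 9.28 with Ifnb1eGFP supernatant and between 9.94 and 11.6 with rIFNβ. In each comparison the IFNβ group lay above its reference. Clec10a rose by 0.42 ± 0.13 on the log2 scale in the supernatant comparison (adjusted p = 0.0191, edgeR) and by 0.67 ± 0.13 with rIFNβ (adjusted p = 0.00121, edgeR). The former call was lost without eGFP supernatant replicate 1 (adjusted p = 0.0631) or 3 (0.0633) or Ifnb1eGFP supernatant replicate 1 (0.0780).

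**Figure D2:**
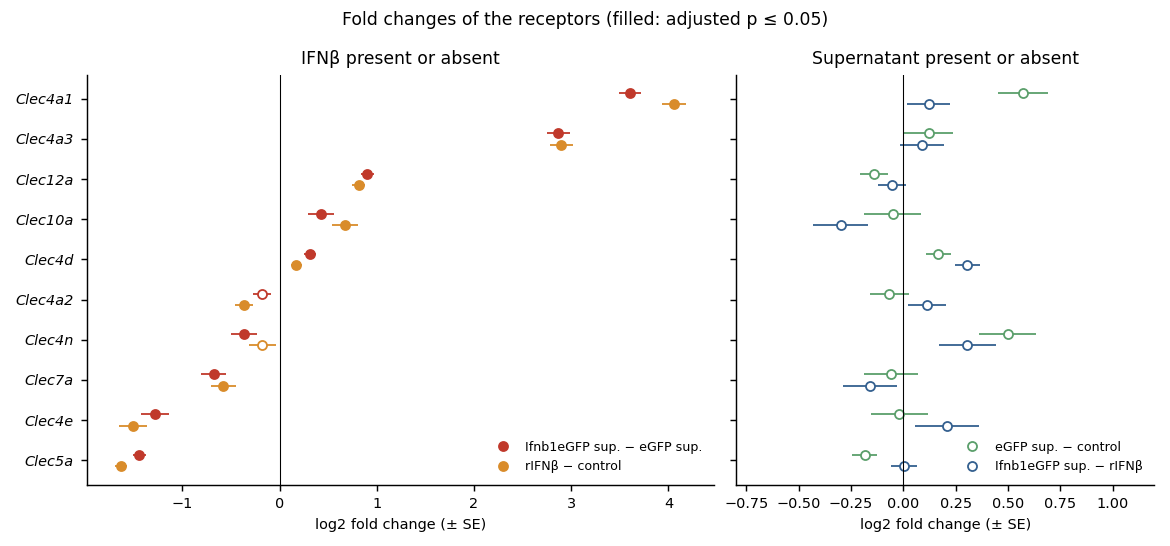
Log2 fold change ± SE of the 10 receptors, with IFNβ present or absent on the left and supernatant present or absent on the right, on different horizontal scales. Filled points passed an adjusted p of 0.05 by edgeR. The pairs of IFNβ comparisons run from 3.61 and 4.06 for Clec4a1 to −1.44 and −1.63 for Clec5a, and no point on the right is filled.

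The question of whether melanoma supernatant without added IFNβ changed the receptors was addressed by eGFP supernatant against control. edgeR called 0 of the 10, where 0.299% of all genes were called, and 4 had an unadjusted p under 0.05. DESeq2 called 1. The libraries did not overlap for 5 of the 10, beside 15.5% of all genes. The largest value was that of Clec4a1, whose 3 eGFP supernatant libraries were above the 3 controls (log2 fold change 0.57 ± 0.12, interval of ±2 SE 0.33 to 0.81, adjusted p = 0.105, edgeR). It passed without Ifnb1eGFP supernatant replicate 2 (adjusted p = 0.0261), by DESeq2 (0.00359) and with replicate number as a block in edgeR (0.00983). Clec4n was next, at 0.50 ± 0.14, with an interval of 0.23 to 0.77 (adjusted p = 0.238, edgeR).

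The question of whether the source of IFNβ mattered was addressed by Ifnb1eGFP supernatant against rIFNβ. edgeR called 0 of the 10, where 0.16% of all genes were called, 3 had an unadjusted p under 0.05 and DESeq2 called 1. The libraries did not overlap for 3 of the 10, beside 12.8% of all genes. Clec4d was higher with supernatant in 3 of 3 libraries, at 0.31 ± 0.06 with an interval of 0.18 to 0.43 (adjusted p = 0.113, edgeR). It passed by DESeq2 (adjusted p = 0.00196) and without Ifnb1eGFP supernatant replicate 2 (0.0279). For Clec5a the difference was 0.0021 ± 0.06, and for Clec4a1 it was 0.12 ± 0.10 with an interval of −0.08 to 0.32. These intervals leave room for small differences, and a missed threshold does not show that both sources act alike.

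Pooled over both IFNβ states, supernatant was set against no supernatant in 6 and 6 libraries. Clec4d was the 1 receptor called, where 0.905% of all genes were called, 0.692% higher. Its difference on the log2 scale was 0.24 ± 0.04 (adjusted p = 0.0329, edgeR). That call was lost without any of the 3 control or 3 rIFNβ libraries, eGFP supernatant replicates 1 or 3 or Ifnb1eGFP supernatant replicate 3, with adjusted p from 0.0638 to 0.101. Without Ifnb1eGFP supernatant replicate 2, 3 receptors passed, and 3 also passed with replicate number as a block. The interaction, that is, the difference between the IFNβ effects with and without supernatant, called 0 receptors and 0.0% of all genes by edgeR. Clec4a1 was the 1 receptor with an unadjusted p under 0.05 (−0.45 ± 0.16, adjusted p = 0.926).

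Levels of different genes were compared as CPM per kb of exon length. Clec4d was highest in every group, at 299 ± 10.8 CPM per kb (SD, n = 3) in the controls and 418 ± 34.3 with Ifnb1eGFP supernatant. Clec7a followed in the controls (173 ± 7.21) ahead of Clec12a (73.4 ± 2.45). With Ifnb1eGFP supernatant the means stood in the opposite order, at 104 ± 20.9 for Clec7a and 125 ± 11.9 for Clec12a, and with rIFNβ at 116 ± 14.2 and 129 ± 3.47. Library by library, Clec12a was above Clec7a in each Ifnb1eGFP library (137 and 127, 113 and 88.1, 123 and 95.7). With rIFNβ it was above Clec7a in replicates 2 (125 and 105) and 3 (131.5 and 110), and not in replicate 1 (131.1 and 131.9). Clec4a1 moved from the eighth place (3.02 ± 0.17) to the fourth (54.6 ± 8.19 with Ifnb1eGFP supernatant), and Clec4e was last in every group.

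The summed level of the 10 receptors was 609 ± 10.8 CPM per kb in the controls, 633 ± 27.5 with eGFP supernatant, 774 ± 84.8 with Ifnb1eGFP supernatant and 702 ± 21.3 with rIFNβ. Clec4a1 and Clec4a3 together made up 1.19% ± 0.03 and 1.44% ± 0.06 of this sum without IFNβ, and 11.4% ± 0.71 and 11.6% ± 0.62 with Ifnb1eGFP supernatant and rIFNβ. The share of Clec7a was 28.4% ± 1.31 and 26.2% ± 1.81 without IFNβ and 13.3% ± 1.19 and 16.5% ± 1.60 with it. Shares sum to a whole in each library, so a gain of one receptor lowers the shares of the rest.

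**Figure D3:**
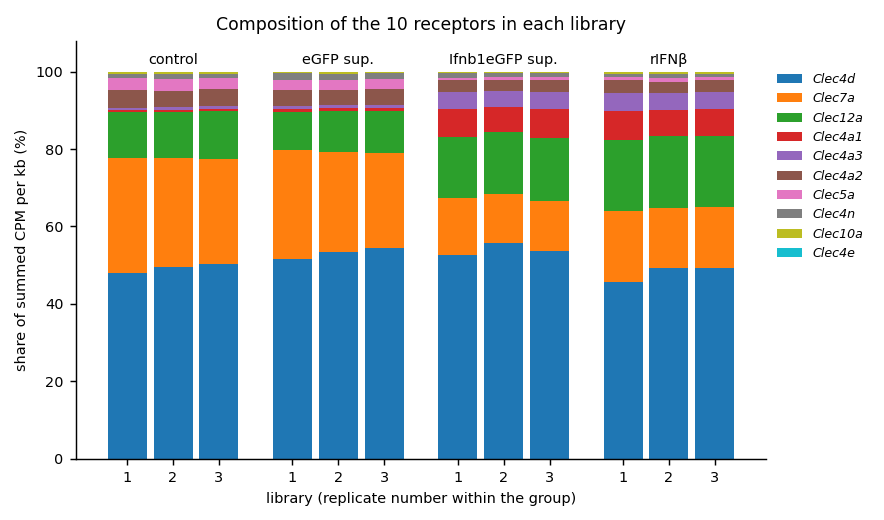
Share of each receptor in the summed CPM per kb of the 10 receptors, in percent, as 1 stacked bar per library. Clec4d makes up 45.8% to 55.8% in every library, and the band of Clec4a1 and Clec4a3 together widens from at most 1.51% in libraries without IFNβ to at least 10.5% in libraries with IFNβ.

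The Clec4 genes form a cluster, in which the 6 Clec4 receptors described here lie among 16 annotated genes over 362.6 kb between the lowest bases of the outermost genes. Of these, 13 were in the count table and 8 passed the filter. Along the cluster, Clec4a1 and Clec4a3 are adjacent at 1 end and were called higher in both IFNβ comparisons, where 30.1% and 30.7% of all genes were. The next gene, Clec4a4, which encodes the inhibitory DCIR2, was scarce. It had 3 to 7 counts in the eGFP supernatant libraries and 25 to 32 with Ifnb1eGFP supernatant (log2 fold change 2.66 ± 0.46, adjusted p = 0.000433, edgeR). Clec4a4 was also called higher in both comparisons. It passed the filter only through the libraries with IFNβ, so the filter fixed the direction of its calls and they add no support. Its neighbor Clec4b1 had 0.32 ± 0.15 and 0.03 ± 0.15 and was called in neither comparison, and Clec4b2 had at most 1 count. Clec4e, at the other end, fell. Between Clec12a and Clec7a lie 5 further annotated genes, of which Clec1b and Clec1a were called in neither comparison. Clec9a, from 3 to 17 counts per library, was called lower in the supernatant comparison alone (−1.56 ± 0.34, adjusted p = 0.00233, edgeR), and the difference between the comparisons did not pass (interaction adjusted p = 0.926).

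**Figure D4:**
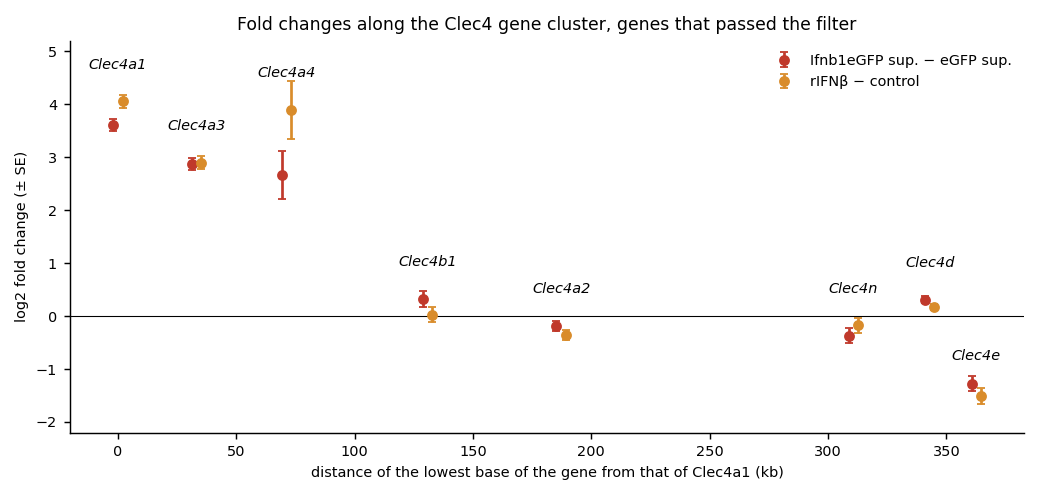
Log2 fold change ± SE of the 8 tested genes of the Clec4 cluster against the distance, in kb, of each gene's lowest base from that of Clec4a1. The 3 genes at the left end stand between 2.66 and 4.06 and the other 5 between −1.51 and 0.32, with Clec4e, at 362.6 kb, the lowest. Of the 3, Clec4a4 passed the filter on low counts only through libraries with IFNβ.

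Genes that carry the receptors' signals were read from a list of 18 adaptor and signaling genes, all tested. In the supernatant comparison 6 were called higher and 3 lower, and with rIFNβ 8 higher and 5 lower, beside the 55.1% and 55.3% of all genes called. The medians were 0.04 and 0.13 on the log2 scale. The adaptor of Clec4d, Clec4e and Clec4n, Fcer1g, was at 477 ± 12.7 CPM with eGFP and 489.8 ± 13.0 CPM with Ifnb1eGFP supernatant, and was called in neither comparison. Neither was Hcst, nor Card9 at 32.7 ± 2.22 and 30.9 ± 7.45 CPM. Tyrobp, the partner of Clec5a, fell by 0.10 ± 0.04 with rIFNβ (adjusted p = 0.0314, edgeR) and had −0.08 ± 0.04 in the supernatant comparison (adjusted p = 0.0767, edgeR).

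Syk rose from 412 ± 3.32 to 565 ± 13.3 CPM in the supernatant comparison (log2 fold change 0.46 ± 0.04, adjusted p = 7.18e-07, edgeR) and by 0.36 ± 0.04 with rIFNβ. Lyn, a Src family kinase that phosphorylates the receptors' motifs, rose from 178 ± 9.67 to 681 ± 33.1 CPM (1.94 ± 0.06, adjusted p = 4.29e-10, edgeR). Vav3, a guanine nucleotide exchange factor of the pathway, rose by 0.67 ± 0.05. Malt1, the protease that acts below Card9 and Bcl10, fell most, from 157 ± 15.8 to 23.6 ± 1.69 CPM (−2.74 ± 0.08, adjusted p = 4.29e-10, edgeR) and by 2.87 ± 0.08 with rIFNβ. The kinase Fgr, from 30 to 51 counts per library with eGFP supernatant, also fell (−1.23 ± 0.35).

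Of the 3 phosphatases that inhibitory receptors recruit, Ptpn6, which encodes SHP-1, rose from 177 ± 7.63 to 305 ± 5.57 CPM (0.78 ± 0.04, adjusted p = 3.62e-08, edgeR) and by 0.81 ± 0.04 with rIFNβ. Inpp5d, which encodes SHIP-1, rose by 0.58 ± 0.05 and 0.63 ± 0.05. Ptpn11 was called with rIFNβ alone, where it fell by 0.17 ± 0.04 (adjusted p = 0.00404, edgeR).

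**Figure D5:**
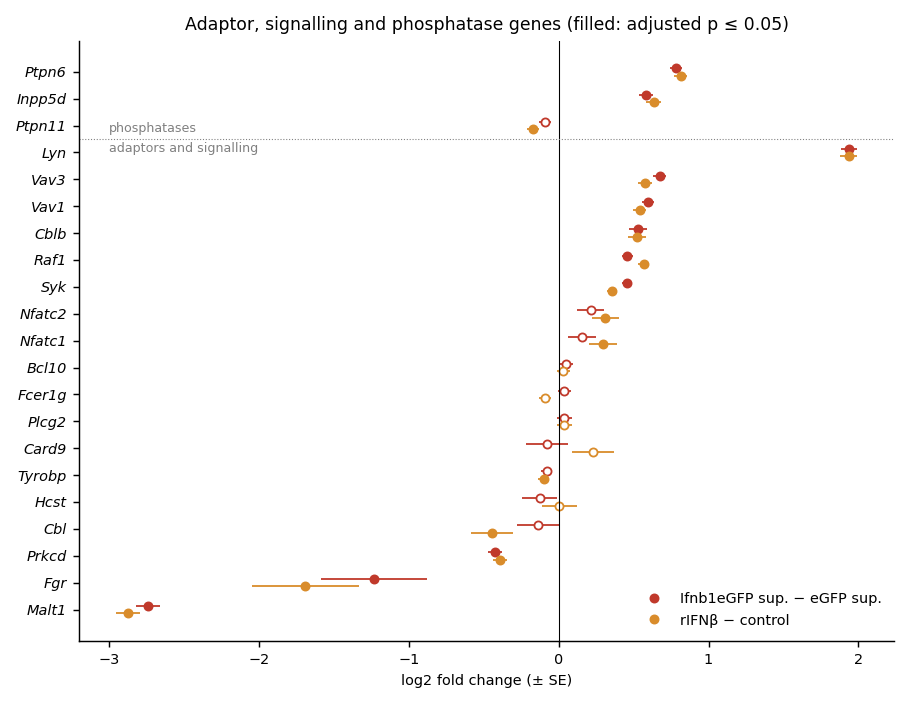
Log2 fold change ± SE of 18 adaptor and signaling genes and, above the dotted line, 3 phosphatases for Ifnb1eGFP against eGFP supernatant and rIFNβ against control. Filled points passed an adjusted p of 0.05 by edgeR. Lyn stands highest at 1.94 in each comparison, Malt1 lowest at −2.74 and −2.87, and Fcer1g, Hcst and Card9 are open.

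Genes that lie downstream of Syk, Card9 and NFAT in these pathways numbered 14, of which 10 were tested. The supernatant comparison called 5 higher and 2 lower, and rIFNβ 4 higher and 3 lower, beside the 55.1% and 55.3% of all genes called. The medians were 0.42 and 0.11 on the log2 scale. Il10, an anti-inflammatory cytokine, rose from 0.56 ± 0.06 to 7.01 ± 0.41 CPM (3.63 ± 0.16, adjusted p = 8.31e-09, edgeR), and Ptgs2, the inducible cyclooxygenase, from 4.80 ± 1.11 to 11.9 ± 2.21 CPM (1.31 ± 0.23, adjusted p = 0.000581, edgeR). The transcription factors Egr2 and Egr3 fell to 14.2 ± 1.52 and 0.45 ± 0.15 CPM, with log2 fold changes of −3.16 ± 0.11 and −2.11 ± 0.24. These genes answer to many other receptors, and no ligand of a C-type lectin was added in this experiment.

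Among 38 other receptors with a C-type lectin fold, 20 were tested, with 6 called higher and 5 lower in the supernatant comparison and 7 higher and 4 lower with rIFNβ, shares near the 55.1% and 55.3% of all genes called. The medians were 0.20 and 0.14 on the log2 scale. Klra2, a Ly49-type inhibitory receptor, rose from 1.43 ± 0.23 to 30.99 ± 5.22 CPM (4.43 ± 0.17, adjusted p = 2.57e-09, edgeR). Cd69, an early activation marker, rose from 0.48 ± 0.30 to 7.95 ± 1.65 CPM (4.04 ± 0.31, adjusted p = 7.26e-07, edgeR). Olr1, a receptor for oxidized low-density lipoprotein, was called lower, with 33 to 58 counts per library with eGFP and 1 to 3 with Ifnb1eGFP supernatant. Klrb1c, an NK-cell receptor gene, was at 20 to 23 counts with eGFP and 0 in each Ifnb1eGFP library, at least 7.22-fold lower against a floor of 3 counts per library. Olr1 and Klrb1c passed the filter on low counts only through libraries without IFNβ, and Cd69 only through libraries with it. The filter thus fixed the direction of their calls.

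Genes of other cell types moved with the same comparisons. The summed level of 3 monocyte markers ran from 8.46 to 11.1 CPM in the 6 libraries without IFNβ and from 1.01 to 2.02 CPM in the 6 with it, carried by Ccr2 (9.15 ± 1.27 to 1.13 ± 0.25 CPM in the supernatant comparison, adjusted p = 4.82e-08, edgeR). The untested monocyte gene Ly6c2 stood the other way, with at most 1 count in each library without IFNβ, 5 to 14 with Ifnb1eGFP supernatant and 2 to 11 with rIFNβ. The sum of 8 neutrophil markers went from between 4.36 and 5.91 CPM to between 0.30 and 1.09 CPM, carried by S100a8, while the other 7 had at most 10 counts in any library and Ly6g, Camp and Elane at most 3. The sum of 6 dendritic cell markers went from between 4.497 and 6.56 CPM to between 0.80 and 1.21 CPM, carried by Cd24a and Zbtb46, while the other 4 had at most 8 counts and Flt3 at most 1. Of these lists, 2 of 3 monocyte, 1 of 8 neutrophil and 2 of 6 dendritic cell genes were tested, and each was called lower in both IFNβ comparisons. Their part in the fall of Clec5a, Clec4e and Clec7a, which monocytes and neutrophils also express, was not tested. Lymphocyte markers had at most 7 counts per library. Of 6 melanoma genes, Tyr, Tyrp1 and Sox10 had at most 1 count, Dct at most 3 and Mlana at most 5, and Pmel, the 1 tested, had 9 to 31 counts per library and was called in neither IFNβ comparison (adjusted p = 0.849 and 0.394, edgeR). The sum of 3 mast cell and basophil genes ran from 0.93 to 1.42 CPM without IFNβ and from 0.20 to 1.04 CPM with it, with Gata2, the 1 tested, called lower in both IFNβ comparisons. The stromal genes Dcn and Pdgfra were called higher and Col1a1 lower in both IFNβ comparisons, with summed levels of 5 stromal genes from 30.5 to 84.0 CPM without IFNβ and from 50.4 to 79.5 CPM with it. Of 8 macrophage markers, 4 were called higher and 3 lower in each IFNβ comparison. Itgam and Lyz2 fell by 1.99 ± 0.04 and 1.59 ± 0.05 in the supernatant comparison, and Cd14 went from 316 ± 33.6 to 184 ± 39.7 CPM. Fcgr1 rose by 3.85 ± 0.19, and Csf1r had 0.04 ± 0.04 (adjusted p = 0.499, edgeR). The summed level of the 8 ran from 14396 to 18802 CPM without IFNβ and from 9818 to 10720 CPM with it. Lyz2 alone went from 12396 ± 385 to 4111 ± 208 CPM in the supernatant comparison.

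Clec10a is a marker of the IL4-driven state, for which 5 other genes were listed. Of these, 2 were called higher and 0 lower in each IFNβ comparison, where 30.1% and 30.7% of all genes were called higher and 25.0% and 24.6% lower, and so few genes do not set the list apart from those shares. The 2 were Chil3 at 74.9 ± 6.54 and 128 ± 1.16 CPM and Il4ra at 84.0 ± 2.92 and 156 ± 21.6 CPM with eGFP and Ifnb1eGFP supernatant. Of the others, Mrc1 ran from 609 to 839 CPM and Retnla from 45.4 to 71.3 CPM over the 12 libraries. Arg1, a usual marker of the M2-like state, was at most 0.88 CPM in all 12 libraries. Mrc1, Retnla and Arg1 were called in neither IFNβ comparison.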

How the data were processed

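M2-like BMDM were sequenced in 12 libraries, 3 per condition. The authors used the TruSeq Stranded Total RNA kit and deposited RSEM (v1.3.3) expected counts per Ensembl gene, unfiltered. The submitters' notes name GRCm39 and mm10, which are names of different builds. Columns were matched to samples by description, and 0 were left over. Gene positions are GENCODE's on GRCm39 and promoter windows are RefSeq's on GRCm38.p6.

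Counts were rounded, since 32% of those above 0 were not whole, and analyzed in R 4.3.3 with edgeR 4.0.16. The 15033 genes passing filterByExpr were scaled by TMM and fitted in 1 quasi-likelihood model over 12 libraries (prior count 0.125). P values were adjusted by Benjamini-Hochberg over all genes tested. SEs were approximated as the log2 fold change divided by the root of F. The test was also run on simulated counts of 15033 genes for Ifnb1eGFP against eGFP supernatant. A far smaller share of genes was changed there than the 55.1% called in the data, so no conclusion is drawn from it. With 3 against 3 libraries, an exact permutation test for differences in either direction cannot reach 0.05. The series' design gives 3 mice per condition.

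Receptors and lists were chosen with earlier results of these data known. All 10 receptors, 6 core signaling genes and up to 4 genes per further list, by largest called fold change in the supernatant comparison, were named. Genes of the marker lists, and neighbors in the clusters, were named after their values were seen. From the lists, 1 signaling gene and 1 motif are not reported here. Alternatives were RLE factors, library totals, no filter, the study's thresholds, only the compared groups, DESeq2 1.42.0, a replicate block and each library left out.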

Additional observations from a re-analysis of the deposited data

How the results depend on the processing

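Counts of receptors called (9, 9, 0, 0, 1 and 0 for Ifnb1eGFP against eGFP supernatant, rIFNβ against control, eGFP supernatant against control, Ifnb1eGFP supernatant against rIFNβ, pooled supernatant and interaction) moved as follows. At the study's thresholds the IFNβ comparisons gave 2 each and pooled supernatant 0. Without a filter and with DESeq2, eGFP supernatant against control gave 1 and pooled supernatant 3. DESeq2 gave 1 for Ifnb1eGFP supernatant against rIFNβ, and library totals gave 0 for pooled supernatant. With 1 library left out the counts ran from 7 to 9, 8 to 9, 0 to 1, 0 to 1 and 0 to 3, and the interaction stayed at 0.

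With the replicate block, eGFP supernatant against control called 1 receptor, Clec4a1 (adjusted p = 0.00983), and pooled supernatant 3, adding Clec4a1 (0.00706) and Clec4n (0.0298). Ifnb1eGFP against eGFP supernatant called 10, adding Clec4a2 (0.0224), which was lower in each of the 3 same-numbered pairs. The block ended no call. Deviations of same-numbered libraries from their group means correlated at 0.06 to 0.25 over 18 pairs, all above 0 and 13 over 0.1. Of the 36 pairs with different numbers, 33 were below 0. Deviations sum to 0 within a group, so those values largely follow from the same-numbered ones and are not separate evidence. All 12 libraries correlated best, on average, with libraries of their own number, a hint from the data that the numbers may pair the libraries. No label ties the numbers to mice, so the fit without the block is reported, and the calls that the block adds are given beside it. For Ifnb1eGFP supernatant against rIFNβ the same-numbered pairs correlated at 0.17 to 0.25, and there the block called 0 receptors as well. The cause of these changes was not tested.

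Clec4n lost its supernatant call with only the compared groups (adjusted p = 0.0660), and Clec4d its rIFNβ call with RLE factors (0.139) and no filter (0.0535). Signs turned only for differences that were never called. Clec4e for eGFP supernatant against control gave 0.012 without a filter and −0.072 to 0.081 with a library left out, and Clec5a for Ifnb1eGFP supernatant against rIFNβ gave −0.0051 with library totals and −0.045 to 0.057. With a library left out, Clec4a3 and Clec12a gave −0.038 to 0.20 and −0.12 to 0.011 against rIFNβ, Clec4a3 and Clec7a −0.16 to 0.082 and −0.27 to 0.0049 for the interaction, pooled Clec4a2 −0.020 to 0.071, and Clec10a −0.16 to 0.13 for eGFP supernatant against control. Of the alternative values of single receptors, 1003 kept their sign and side of the threshold, 25 lost a call, 16 gained one and 16 changed sign. Clec4e, with 48 to 160 counts per library, had the least depth.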
